A study of Mus musculus with 39 samples.

Results

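The metallothionein genes Mt1 and Mt2, the zinc-sensing transcription factor gene Mtf1, and the zinc transporter genes Slc30a1 and Slc39a14 were followed through 3 tissues, liver, muscle and white adipose tissue (WAT), of a mouse model of polycystic ovary syndrome (PCOS). These 5 genes, of 30671 gene identifiers in the deposited tables, were found by their gene names. They were chosen by the lower FPKM of metallothioneins in livers of PCOS vehicle mice than of control vehicle mice, so the liver values of those arms are given as a description, with no test. All mice were of the C57Bl6/J strain. In the PCOS roxadustat arm, letrozole, an aromatase inhibitor, had been given before puberty, and roxadustat, which inhibits the prolyl hydroxylases that target hypoxia-inducible factor (HIF) for degradation, was given by mouth for 6 weeks starting at 12 weeks of age. The PCOS vehicle arm had the same letrozole treatment followed by vehicle over the same weeks. The control vehicle arm received vehicle and was not a PCOS arm. What the controls received before puberty was not given in the sources used here. Each of the 3 arms had 4 liver and 4 muscle libraries, and WAT had 5 PCOS roxadustat, 6 PCOS vehicle and 4 control vehicle libraries, each from a separate mouse within its tissue. In all, 39 libraries of polyadenylated RNA came from 18 mice, and 9 mice gave all 3 tissues.

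Metallothioneins are small, cysteine-rich proteins that bind zinc and copper, and liver is a major site of their synthesis. When zinc in the cell rises, the factor encoded by Mtf1 binds metal response elements in the promoters of Mt1, Mt2 and Slc30a1 and raises their transcription. Glucocorticoids, inflammation and oxidative stress also induce metallothioneins. Slc30a1 encodes a plasma membrane exporter that moves zinc out of the cell, and Slc39a14 encodes an importer of zinc, iron and manganese that liver raises in the acute phase response.

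Per the deposited tables, with coordinates of the mm39 build, both metallothionein genes lie on the plus strand of chromosome 8. Mt2 (ENSMUSG00000031762) spans 94899292 to 94900196 and Mt1 (ENSMUSG00000031765) spans 94905710 to 94906955, with 5513 bases between them. The length behind the deposited values was 1246 bases for Mt1, which equals its whole span, and 588 bases for Mt2. Mt2 overlaps an antisense long noncoding RNA gene, Gm45774, and since the sources do not say whether the libraries kept strand, reads of Mt2 and this gene cannot be told apart. Mtf1 (ENSMUSG00000028890) lies on chromosome 4 from 124695897 to 124743593, Slc30a1 (ENSMUSG00000037434) on chromosome 1 from 191638879 to 191645359, and Slc39a14 (ENSMUSG00000022094) on chromosome 14 from 70540918 to 70588874. Slc30a1 also overlaps an antisense long noncoding RNA gene, 1700034H15Rik, and Mtf1 overlaps 1110065P20Rik and a 5S_rRNA gene.

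The promoter windows of the metallothionein genes are shown because they differ in the number of matches to the metal response element. They are the 250 bases before the start annotated by RefSeq on GRCm38.p6, an older build whose coordinates were not converted to mm39. An entry was found for 4 of the 5 members and none for Slc39a14. Capitals mark matches on either strand to TGCACNC or TGCGCNC, the core of the metal response element. The Mt1 window is chr8:94178839-94179088 and the Mt2 window is chr8:94172368-94172617, both on the plus strand and written 5′ to 3′.
Mt1: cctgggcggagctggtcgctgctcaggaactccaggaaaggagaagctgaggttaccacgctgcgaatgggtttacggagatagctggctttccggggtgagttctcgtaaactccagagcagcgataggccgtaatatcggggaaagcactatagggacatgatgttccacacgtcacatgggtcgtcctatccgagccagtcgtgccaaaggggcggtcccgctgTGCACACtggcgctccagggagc
Mt2: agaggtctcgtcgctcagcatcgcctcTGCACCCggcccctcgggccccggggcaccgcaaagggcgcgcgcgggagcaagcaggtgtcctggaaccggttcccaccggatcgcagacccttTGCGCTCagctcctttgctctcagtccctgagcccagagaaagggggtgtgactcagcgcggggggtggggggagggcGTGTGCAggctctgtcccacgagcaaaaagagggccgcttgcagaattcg
The Mt1 window holds 1 match, at bases -23 to -17 from the annotated start. The Mt2 window holds 3 matches, at -223 to -217, at -128 to -122 and, on the minus strand, at -50 to -44. Among the other members, the Slc30a1 window holds 1 match at -43 to -37 on the minus strand and the Mtf1 window holds 0. Of 32851 promoter windows of this length, 21.4% hold at least 1 match and 1.26% hold at least 3. The core of the HIF binding site, ACGTG or GCGTG on either strand, occurs 2 times in the Mt1 window, 1 time in each of the Mt2 and Slc30a1 windows and 0 times in the Mtf1 window, and 38.6% of all windows hold it at least 1 time. A match describes the letters of a window and not a site in use. Bases outside these windows were not searched, and the windows depend on the annotated start. The counts are thus not numbers of metal response elements per gene.

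Values are FPKM, which the authors derived from fragments, gene length and library size, and reads are those recovered from the steps of the FPKM values. Depth was 12389970 to 19350634 reads per liver library, 14332757 to 18627919 per muscle library and 13664558 to 19639244 per WAT library. Some libraries listed few genes with 1 to 3 reads. Fewer than 1500 such genes were listed in liver libraries of roxadustat mouse 782, PCOS vehicle mouse 773 and control mice 789, 801 and 804. The other liver libraries listed 1524 to 3094, the lowest in roxadustat mouse 808, so that no clear gap parts the liver libraries at this limit. In WAT fewer than 1500 were listed for roxadustat mouse 782, PCOS vehicle mice 785, 796, 814 and 822 and control mice 778 and 789, and in muscle for none. Tissue labels fitted their markers, in that 5 hepatocyte markers summed to 57112 to 83677 FPKM in liver, 5 muscle fibre markers to 53066 to 86226 FPKM in muscle and 5 adipocyte markers to 3807 to 7137 FPKM in WAT. WAT libraries also carried 483 to 2021 FPKM of hepatocyte markers. Because these are bulk samples, fewer cells of a type and less RNA per cell cannot be told apart.

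In liver, both metallothionein RNAs were far lower in PCOS vehicle mice than in control vehicle mice, Mt1 to about 15.6% and Mt2 to about 1.0% of the control level. Mtf1 and both transporters had small differences, with groups that overlapped. Mt1 had 41.2, 149.5, 70.6 and 52.4 FPKM in PCOS vehicle livers (mice 770, 773, 785 and 814), against 341, 788, 544 and 339 FPKM in control vehicle livers (mice 789, 801, 802 and 804). The groups did not overlap, and the highest PCOS liver, of mouse 773, stayed under the lowest control liver. Mt1 averaged 78.4 ± 48.9 FPKM in PCOS vehicle livers and 503 ± 213 FPKM in control livers (SD, n = 4 each), which is a 6.42-fold lower mean. On the log2(FPKM + 0.5) scale the difference was -2.76 (SE 0.399).

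Mt2 had 0.127, 0, 0.418 and 0.286 FPKM in PCOS vehicle livers, from 1, 0, 3 and 2 reads, against 17.0, 29.7, 23.6 and 14.7 FPKM in control livers, from 126, 170, 201 and 111 reads. Every PCOS vehicle liver was near the detection limit, where 3 reads correspond to 0.445 FPKM in the library listed at 0. Mt2 averaged 0.208 ± 0.183 FPKM in PCOS vehicle livers and 21.2 ± 6.75 FPKM in control livers (SD, n = 4 each), with a log2(FPKM + 0.5) difference of -4.93 (SE 0.278). Summed over the arm and scaled to depth, the 6 reads in PCOS vehicle livers were 1.0% of the 608 reads in control livers, with an exact 95% interval of 0.366% to 2.19% for counting error only. Mt2 passed the filter on low values through the control libraries alone, so that a lower value in PCOS livers was bound to follow. Of all 14021 genes tested in this comparison, 0.82% were called, 0.378% as lower, and 2.85% were lower with no overlap of the groups. The 2 metallothioneins were in each of these sets, by the way they were chosen.

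**Figure D1:**
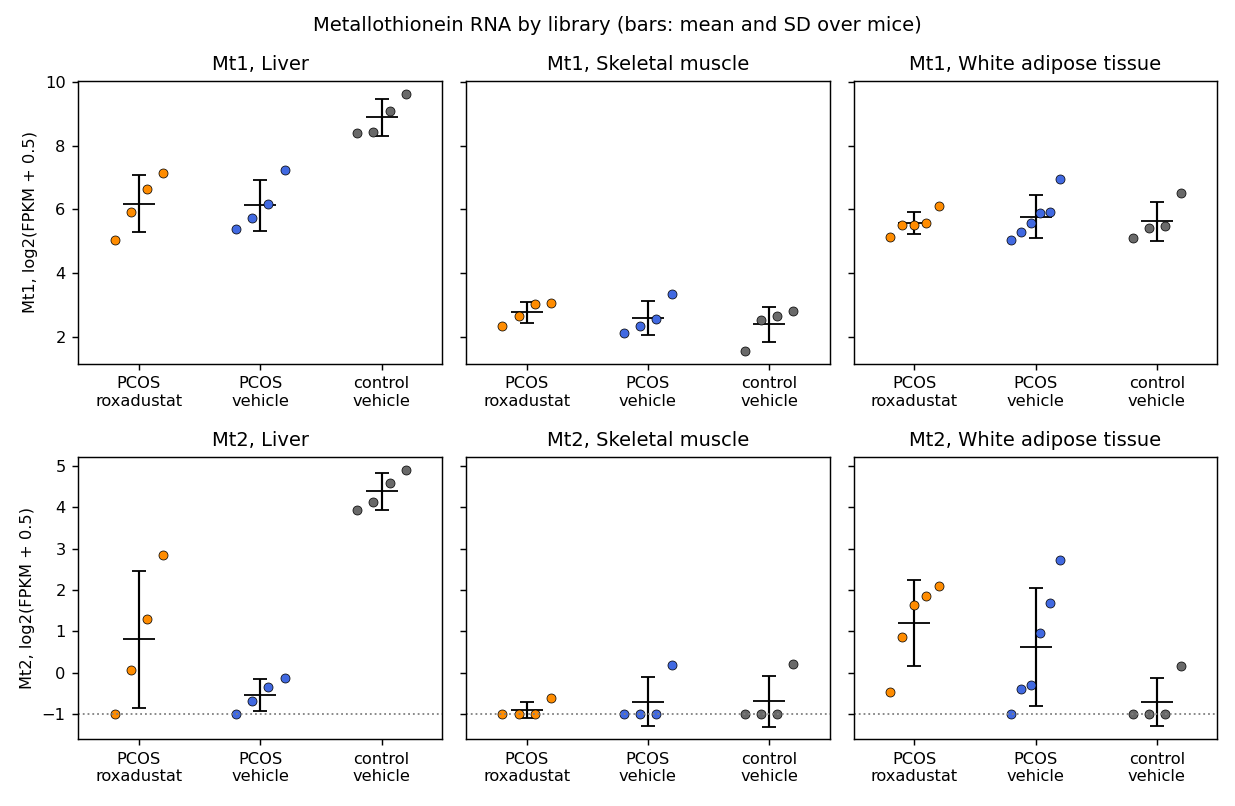
Mt1 (upper panels) and Mt2 (lower panels) in each library on the log2(FPKM + 0.5) scale, by tissue and arm, with bars for the mean and SD over mice and a dotted line where FPKM is 0. In liver, all PCOS libraries lie below all control vehicle libraries for both genes, while in muscle and WAT the arms overlap.

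The PCOS liver with the highest Mt1, of mouse 773, was listed at 0 for Mt2. It was among the libraries with few genes of 1 to 3 reads, as was the roxadustat liver of mouse 782, also listed at 0. The part of this library property in the Mt2 zeros was not tested further than by a term for it in the fit, chosen after seeing the data, which gave -2.46 for Mt1 and -5.15 for Mt2 in PCOS vehicle against control vehicle livers. Erythroid markers overlapped in sum between these arms in liver. Their summed level was 924 to 2291 FPKM in PCOS vehicle livers and 751 to 1262 FPKM in control livers. Of the 5 markers 4 were higher and 1 lower, with a median log2 difference of 0.19. The 1 called was Alas2, the erythroid enzyme of heme synthesis. It rose to 23.4 ± 4.80 FPKM against 5.38 ± 2.82 FPKM in controls (log2 difference 2.11, SE 0.298, limma adjusted p = 0.00528). Hepatocyte markers overlapped, at 57112 to 82472 FPKM in PCOS vehicle and 62094 to 73359 FPKM in control livers. Their part in the metallothionein levels was not tested.

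With roxadustat, liver Mt1 of PCOS mice lay among the values of PCOS vehicle livers and below all control livers. Mt1 had 59.4, 32.6, 98.0 and 140.4 FPKM in PCOS roxadustat livers (mice 767, 782, 795 and 808), against the 41.2 to 149.5 FPKM of PCOS vehicle livers. The ranges overlapped almost fully. The mean was 82.6 ± 47.0 FPKM with roxadustat and 78.4 ± 48.9 FPKM with vehicle (SD, n = 4 each), and the log2 difference was 0.06 (SE 0.479, 95% interval -1.0 to 1.12, limma adjusted p = 0.9997). These vehicle libraries are the ones that chose the members.

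Relative to its mean, Mt2 with roxadustat spread widely between livers. It had 0.541, 0, 1.96 and 6.74 FPKM in the PCOS roxadustat livers of mice 767, 782, 795 and 808, from 4, 0, 15 and 67 reads, against 0 to 0.418 FPKM in PCOS vehicle livers. The liver of mouse 808 held most of the reads, and the liver of mouse 782 was listed at 0, so the groups overlapped. The mean was 2.31 ± 3.07 FPKM in roxadustat livers and 0.208 ± 0.183 FPKM in vehicle livers (SD, n = 4 each). Mt2 did not pass the filter here and was not tested. Erythroid markers summed to 300.5 to 1657 FPKM in roxadustat livers, against 924 to 2291 FPKM in PCOS vehicle livers, with all 5 lower and none called, and their part was not tested. Summed reads, scaled to depth, were 12.3 times higher in roxadustat livers, 86 against 6, with an exact 95% interval of 5.42 to 34.4 that covers counting error only and not the spread between mice. In the authors' deposited table Mt2 had a log2 fold change of 3.48 for this comparison, with a p-value of 0.00621 and an adjusted value of 0.9998. No member was called between these arms by limma, where 0.0% of 14015 genes were called, 411 had an unadjusted p under 0.05 and voom called 0.

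Against control vehicle livers, which are the same control libraries as above, PCOS roxadustat livers had lower Mt1, Mt2 and Slc39a14, with no overlap of the groups. Across all genes 4.01% did not overlap, 2.11% as lower. The mean of Mt1 was 6.09-fold lower with roxadustat than in controls, with a log2 difference of -2.71 (SE 0.434), and that of Mt2 was -3.59 (SE 0.670). Summed Mt2 reads, scaled to depth, were 12.3% of the control level (exact 95% interval 9.69% to 15.4%, counting error only). Limma called no member and 0.0% of 14152 genes, although 1148 had an unadjusted p under 0.05, and voom called 2 genes, Mt1 among them. The roxadustat liver of mouse 808 decided this count, since without it 157 genes were called, with Mt1 and Mt2 among them. The control livers are among those that chose both genes, and Mt2 passed the filter only with them. These calls of Mt1 and Mt2 are therefore descriptions and no test.

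The balance between the metallothioneins in liver is given as a description, because PCOS vehicle and control livers chose both genes. A larger drop of Mt2 than of Mt1 lowers the share of Mt2 by itself. Mt2 gave 0.428%, 0%, 0.936% and 2.21% of all metallothionein reads in roxadustat livers (mice 767, 782, 795 and 808) and 0.145%, 0%, 0.278% and 0.257% in PCOS vehicle livers (mice 770, 773, 785 and 814), against 2.30%, 1.74%, 2.0% and 2.01% in control livers. All PCOS vehicle livers and 3 of the 4 roxadustat livers lay below the control range. The liver of mouse 808 lay within it, with an exact 95% binomial interval of 1.72% to 2.80%. Its Mt1, at 140.4 FPKM, was nevertheless under every control liver. Over the 8 PCOS livers the correlation of log2(FPKM + 0.5) of Mt1 and Mt2 was not detectable (Pearson r 0.558, exact permutation p = 0.15, adjusted over 2 tissues 0.3; Spearman rho 0.395, exact permutation p = 0.332). It was 0.942 without the 2 libraries farthest from the Mt1 median, of mice 773 and 808. The livers left had 0 to 4 Mt2 reads, except for 15 in mouse 795. That value thus rests on Mt2 near the detection limit and shows no close coupling of the genes. No pooled value over all liver arms is given, because the control livers form a cluster of their own.

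**Figure D2:**
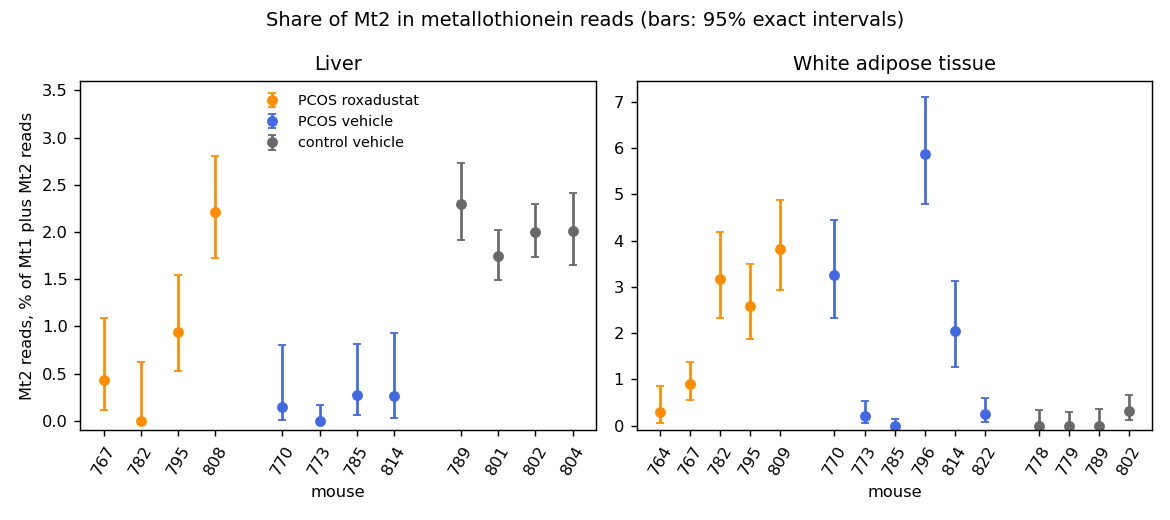
Mt2 reads as a percentage of Mt1 plus Mt2 reads in each liver and WAT library, by mouse number, with exact 95% binomial intervals for counting error. Control livers sit between 1.74% and 2.30% and PCOS vehicle livers under 0.3%, as a description, because these livers chose both genes. In WAT the control libraries are at or near 0 and the PCOS libraries spread up to 5.87%.

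The regulator and the transporters showed no difference of this size in liver. Mtf1 was low in all arms, at 0.959 to 1.82 FPKM with roxadustat, 0.978 to 1.26 FPKM with PCOS vehicle and 1.11 to 1.48 FPKM in controls. Its log2 difference was -0.15 (SE 0.182) for PCOS vehicle against control vehicle, and 0.12 (SE 0.189, limma adjusted p = 0.9997) for roxadustat against PCOS vehicle. Slc30a1, the exporter that shares the metal response element with the metallothioneins, had 5.69, 5.22, 6.72 and 4.93 FPKM in roxadustat livers and 3.99, 7.50, 4.87 and 5.32 FPKM in PCOS vehicle livers, against 6.51, 8.06, 6.84 and 4.61 FPKM in control livers. The 3 arms overlapped. The log2 difference of Slc30a1 was -0.25 (SE 0.237) for PCOS vehicle against control vehicle, 0.08 (SE 0.209, limma adjusted p = 0.9997) for roxadustat against PCOS vehicle and -0.17 (SE 0.201) for roxadustat against control.

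Slc39a14, the importer, had 15.6, 15.7, 17.0 and 17.2 FPKM in roxadustat livers and 20.8, 17.7, 15.6 and 17.7 FPKM in PCOS vehicle livers, against 18.4, 20.8, 25.0 and 21.6 FPKM in control livers. All roxadustat livers lay under all control livers, while PCOS vehicle livers overlapped both. The means were 16.4 ± 0.850 FPKM with roxadustat, 17.9 ± 2.13 FPKM with PCOS vehicle and 21.4 ± 2.72 FPKM in controls (SD, n = 4 each). The log2 difference was -0.25 (SE 0.169) for PCOS vehicle against control vehicle, -0.12 (SE 0.153, 95% interval -0.46 to 0.21, limma adjusted p = 0.9997) for roxadustat against PCOS vehicle and -0.37 (SE 0.150) for roxadustat against control.

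**Figure D3:**
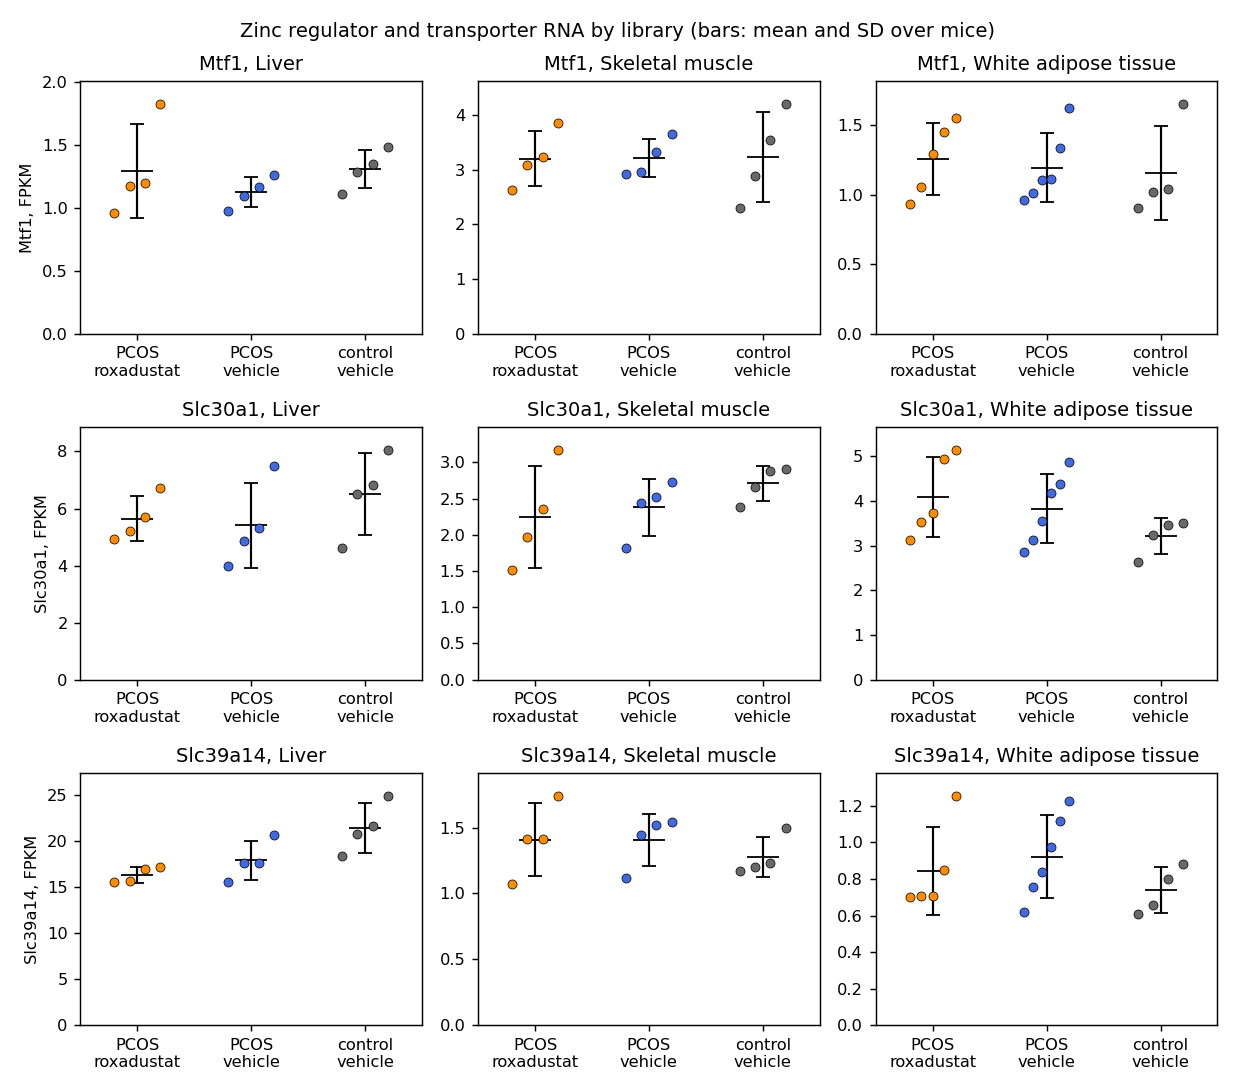
FPKM of Mtf1, Slc30a1 and Slc39a14 in each library by tissue and arm, each panel with its own axis from 0 and bars for the mean and SD over mice. Slc39a14 in liver, at 15.6 to 25.0 FPKM, is the single case in which the roxadustat and control vehicle libraries do not overlap.

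In skeletal muscle the metallothioneins were near the bottom of their range and did not follow the liver pattern. Mt1 had 4.49, 7.55, 7.75 and 5.82 FPKM in PCOS roxadustat muscle (mice 767, 782, 795 and 808) and 5.37, 9.62, 3.78 and 4.57 FPKM in PCOS vehicle muscle (mice 770, 773, 785 and 814), against 2.43, 5.21, 6.49 and 5.77 FPKM in control muscle (mice 789, 801, 802 and 804). The 3 arms overlapped, and the lowest library was a control, of mouse 789. Means were 6.40 ± 1.54 FPKM with roxadustat, 5.84 ± 2.61 FPKM with PCOS vehicle and 4.97 ± 1.78 FPKM in controls (SD, n = 4 each). The log2 difference of Mt1 was 0.20 for PCOS vehicle against control vehicle (SE 0.312, 95% interval -0.49 to 0.90, limma adjusted p = 0.962). For roxadustat it was 0.17 against PCOS vehicle (SE 0.260, interval -0.40 to 0.75, limma adjusted p = 0.99995) and 0.38 against control vehicle (SE 0.267, interval -0.21 to 0.97, limma adjusted p = 0.605). A lowering of the size seen in liver lies outside all 3 intervals.

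Mt2 was listed at 0 in 9 of 12 muscle libraries and had 1 read in roxadustat mouse 782, 4 reads in PCOS vehicle mouse 773 and 6 reads in control mouse 801, and it was not tested. In libraries listed at 0 the limit that 3 reads allow was 0.365 to 0.445 FPKM, so a difference between the arms was not detectable at this depth. Mtf1 averaged 3.20 ± 0.5002 FPKM with roxadustat, 3.21 ± 0.341 FPKM with PCOS vehicle and 3.23 ± 0.824 FPKM in controls (SD, n = 4 each), and Slc30a1 averaged 2.25 ± 0.705, 2.38 ± 0.394 and 2.71 ± 0.241 FPKM in the same order of arms. Slc39a14 averaged 1.41 ± 0.274 FPKM with roxadustat, 1.40 ± 0.196 FPKM with PCOS vehicle and 1.27 ± 0.152 FPKM in controls. These 3 genes had log2 differences between -0.25 and 0.10 over the 3 comparisons, with limma adjusted p from 0.599 to 0.99995. Of the 4 members tested in muscle none was called for PCOS vehicle against control vehicle, where 0.104% of 13438 genes were called, for roxadustat against PCOS vehicle, where 0.0% of 13296 were, or for roxadustat against control vehicle, where 0.349% of 13468 were. For roxadustat against PCOS vehicle 320 genes had an unadjusted p under 0.05 and voom called 0.

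In WAT, Mt1 overlapped between the arms. Mt2 had few reads, was listed at 0 in 3 of 4 control libraries and overlapped between the arms as well. Of the libraries at 0 for Mt2, those of control mice 778 and 789 and PCOS vehicle mouse 785 listed few genes of 1 to 3 reads. That of control mouse 779 did not. Roxadustat mouse 782 and PCOS vehicle mice 796, 814 and 822 also listed few such genes, yet had Mt2 reads. The part of this library property in the Mt2 read ratios and shares of WAT was not tested. Mt1 had 34.8, 68.7, 45.2, 46.7 and 44.5 FPKM in PCOS roxadustat WAT (mice 764, 767, 782, 795 and 809). In PCOS vehicle WAT its lowest value was 32.4, its median 52.6 and its highest 123.7 FPKM, the last in mouse 785, and in control WAT it had 33.4, 44.3, 42.4 and 90.6 FPKM (mice 778, 779, 789 and 802). Means were 48.0 ± 12.5 FPKM with roxadustat (n = 5), 59.9 ± 33.1 FPKM with PCOS vehicle (n = 6) and 52.7 ± 25.7 FPKM in controls (n = 4), each with its SD. The log2 difference of Mt1 was 0.15 for PCOS vehicle against control vehicle (SE 0.362, 95% interval -0.64 to 0.93, limma adjusted p = 0.931). For roxadustat it was -0.21 against PCOS vehicle (SE 0.299, interval -0.85 to 0.44, limma adjusted p = 0.99998) and -0.06 against control vehicle (SE 0.277, interval -0.67 to 0.55, limma adjusted p = 0.913), the last with the opposite sign when FPKM was rescaled to recovered reads.

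Mt2 had 0.217, 1.33, 3.13, 2.63 and 3.74 FPKM in PCOS roxadustat WAT (mice 764, 767, 782, 795 and 809), from 3, 21, 46, 42 and 60 reads, against 0 FPKM in 3 control libraries and 0.619 FPKM, from 7 reads, in control mouse 802. The groups overlapped, because roxadustat mouse 764 lay below control mouse 802. Mt2 averaged 2.21 ± 1.43 FPKM with roxadustat (SD, n = 5) and 0.155 ± 0.309 FPKM in controls (SD, n = 4), with a log2(FPKM + 0.5) difference of 1.91 (SE 0.480). Mt2 passed the filter on low values through 4 roxadustat libraries alone, and a gene that enters in that way is bound to be higher there. Its limma adjusted p of 0.0444 is therefore no test of the direction, and no member is counted as changed in that comparison, in which 5.79% of 15499 genes were called, 3.14% as higher. Without the filter the adjusted p was 0.0974. It was also over 0.05 with voom (0.0832), with all 3 arms in 1 fit (0.151) and without any of the control mice 778, 779, 789 or 802 (0.0592 to 0.103). Without roxadustat mouse 767, 782, 795 or 809 Mt2 no longer passed the filter, and without mouse 764 the adjusted p was 0.00546.

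PCOS vehicle WAT spread over the whole range, with 2.74, 0.266, 0, 6.15, 1.44 and 0.314 FPKM of Mt2 in mice 770, 773, 785, 796, 814 and 822, a median of 0.878 FPKM. The library of mouse 785 was listed at 0 for Mt2 and had the highest Mt1. Mt2 was not tested for PCOS vehicle against control vehicle, since too few libraries passed the filter. Summed reads scaled to depth were 16.5 times higher with roxadustat than in controls, 172 against 7 (exact 95% interval 7.83 to 41.6), and 14.2 times higher with PCOS vehicle than in controls, 167 against 7 (6.74 to 35.9), both for counting error only. In the authors' deposited table, PCOS vehicle against control vehicle had a log2 fold change of 3.52 for Mt2, with a p-value of 0.0129 and an adjusted value of 0.214. Between roxadustat and PCOS vehicle the log2 difference was 0.58 (SE 0.650, 95% interval -0.82 to 1.98, limma adjusted p = 0.99998).

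Markers of other cells moved in WAT in the same comparison. The 5 mesothelium markers summed to 4.55 to 13.7 FPKM in roxadustat WAT and 3.49 to 11.2 FPKM in PCOS vehicle WAT, against 22.1 to 49.1 FPKM in control WAT, and between roxadustat and control all 5 were lower, Krt19, Msln and Wt1 with a call. The 5 macrophage markers summed to 55.0 to 228 FPKM with roxadustat and 55.9 to 116 FPKM with PCOS vehicle, against 50.7 to 85.7 FPKM in controls, with all 5 higher for roxadustat against control and Cd68 called. Of the 5 adipocyte markers 4 were higher and 1 lower, with a median log2 difference of 0.26 and sums that overlapped, at 3807 to 6092 FPKM with roxadustat and 4370.5 to 5161 FPKM in controls. The called one, Lep, which encodes leptin, rose to 372 ± 129 FPKM against 120.2 ± 10.2 FPKM in controls (log2 difference 1.56, SE 0.258, limma adjusted p = 0.0162). Mitochondrial reads moved with the arm too, at 13.6%, 7.85%, 11.1%, 6.60% and 7.97% of reads in roxadustat WAT (mice 764, 767, 782, 795 and 809), against 18.4%, 11.4%, 20.7% and 21.6% in control WAT (mice 778, 779, 789 and 802). The part of these markers and reads in the Mt2, Slc39a1 and Slc39a5 levels was not tested.

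Mt2 gave 0.294%, 0.904%, 3.16%, 2.59% and 3.82% of metallothionein reads in roxadustat WAT (mice 764, 767, 782, 795 and 809). In PCOS vehicle WAT the share was 0% to 5.87% with a median of 1.15%, against 0% in 3 control libraries and 0.321% in control mouse 802. The share thus lay above every control in 4 of 5 roxadustat and 3 of 6 PCOS vehicle libraries. Across the 15 WAT libraries Mt1 and Mt2 showed no detectable correlation (Pearson r -0.207, permutation p = 0.465, adjusted over 2 tissues 0.465; Spearman rho 0.029, permutation p = 0.919; r 0.076 without the 2 libraries farthest from the Mt1 median; 100000 permutations).

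The remaining members did not pass the test in WAT. Mtf1 averaged 1.26 ± 0.261 FPKM with roxadustat, 1.19 ± 0.247 FPKM with PCOS vehicle and 1.16 ± 0.337 FPKM in controls, and Slc39a14 averaged 0.844 ± 0.238, 0.922 ± 0.228 and 0.738 ± 0.125 FPKM in the same order of arms (SD, n = 5, 6 and 4). Slc30a1 averaged 4.09 ± 0.890 FPKM with roxadustat and 3.83 ± 0.778 FPKM with PCOS vehicle, against 3.21 ± 0.402 FPKM in controls. The log2 difference of Slc30a1 was 0.30 for roxadustat against control vehicle (SE 0.167, 95% interval -0.07 to 0.66, limma adjusted p = 0.283) and 0.21 for PCOS vehicle against control vehicle (SE 0.186, interval -0.19 to 0.61, limma adjusted p = 0.706). Mtf1 and Slc39a14 had differences between -0.08 and 0.19 in the 3 comparisons (limma adjusted p from 0.701 to 0.99998). For PCOS vehicle against control vehicle 0 of 4 members tested were called, beside 0.346% of 15603 genes, and none of these 4 had an unadjusted p under 0.05. For roxadustat against PCOS vehicle 0 of 5 were called, beside 0.0% of 15320 genes, with 266 genes at an unadjusted p under 0.05 and 0 called by voom.

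**Figure D4:**
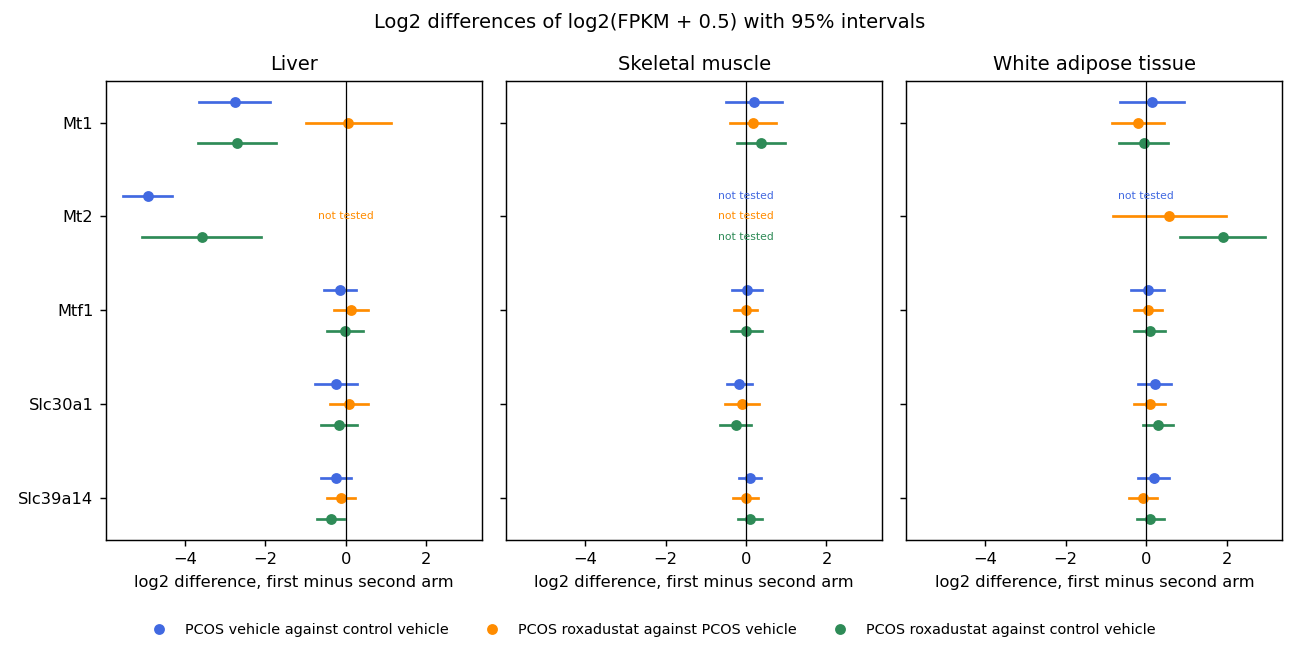
Log2 differences of the 5 members on the log2(FPKM + 0.5) scale in each tissue, with points for the first minus the second arm of each comparison and lines for the 95% intervals, and "not tested" where a gene did not pass the filter. Mt1 lies at -2.76 and -2.71 in the liver comparisons with controls, whose libraries helped to choose it, and close to 0 in muscle and WAT. For roxadustat against control vehicle, Mt2 lies below 0 in liver and above 0 in WAT. It entered these fits through control livers and through roxadustat WAT, so these signs are no test of the direction.

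Set side by side, the lowering of Mt1 in PCOS vehicle against control vehicle was larger in liver than in the other tissues. The difference of log2 differences was -2.97 for liver minus muscle (SE 0.537, 95% interval -4.10 to -1.84) and -2.91 for liver minus WAT (SE 0.576, interval -4.11 to -1.71). Since the liver contrast chose the gene, both are descriptions, beside 0.25% and 0.63% of genes called in these fits. Muscle minus WAT, which does not involve liver, was 0.06 (SE 0.520, interval -1.03 to 1.15, limma adjusted p = 0.984), and 0.0787% of 12699 genes were called there. For roxadustat against PCOS vehicle the difference of differences of Mt1 was -0.12 for liver minus muscle, 0.26 for liver minus WAT and 0.38 for muscle minus WAT, none of them called, with 0.0% of genes called in each. Mt2 did not pass the filter in both tissues of any of these fits.

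The order of the tissues differed between members. Because the authors' scaling differed between tissues, levels across tissues are given as RPKM of recovered reads, per kilobase and scaled to the library's recovered reads. WAT had its own RNA kit, so tissue and kit cannot be told apart for WAT. Mt1 averaged 69.2 ± 41.8 RPKM in roxadustat livers, 62.2 ± 36.8 RPKM in PCOS vehicle livers and 429.8 ± 154 RPKM in control livers. In WAT it averaged 70.0 ± 18.9, 85.1 ± 41.6 and 70.2 ± 32.5 RPKM in the same order of arms, and in muscle 4.96 ± 1.23, 4.42 ± 1.94 and 4.04 ± 1.58 RPKM. Control liver thus stood above control WAT, whereas PCOS livers and PCOS WAT overlapped, and muscle was lowest in every arm. Mt2 had medians of 1.02 RPKM in liver, 0.806 RPKM in WAT and 0 RPKM in muscle. Slc39a14 was highest in liver, with a median of 14.8 RPKM there and 1.08 RPKM in both muscle and WAT, whose ranges overlapped. Slc30a1 had medians of 5.06 RPKM in WAT and 4.42 RPKM in liver, with overlapping ranges, and 1.96 RPKM in muscle. Mtf1 had medians of 2.49 RPKM in muscle, 1.61 RPKM in WAT and 1.03 RPKM in liver, with ranges that overlapped between neighbours.

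The wider zinc list of 29 genes, with the metallothioneins, Mtf1 and the Slc30 exporter and Slc39 importer families, showed few calls outside the members. In liver 24 were tested for PCOS vehicle against control vehicle, 17 lower and 7 higher. Their median log2 difference was -0.15 against 0.00 for all genes. The called ones were the 2 metallothioneins, beside 0.82% of all genes. This comparison chose both, so their calls are no test. For roxadustat against PCOS vehicle 23 were tested in liver, 14 higher and 9 lower, and none was called. The lowest p there belonged to the importers Slc39a2, with 1.81 ± 0.396 FPKM with roxadustat against 2.39 ± 0.423 FPKM with vehicle, and Slc39a13, with 4.93 ± 0.540 against 3.83 ± 1.18 FPKM (limma adjusted p = 0.9997 for both). For roxadustat against control vehicle none of 24 was called in liver.

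In muscle the gene of the list that stood out was Slc30a2, an exporter known for loading zinc into vesicles. It had 2.39, 2.94, 5.11 and 4.96 FPKM in roxadustat muscle (mice 767, 782, 795 and 808) and 1.54, 4.45, 4.29 and 2.98 FPKM in PCOS vehicle muscle (mice 770, 773, 785 and 814), against 0.685, 1.001, 0.643 and 0.425 FPKM in control muscle (mice 789, 801, 802 and 804). Neither PCOS arm overlapped the controls, which held for 6.24% of all genes with roxadustat and 3.78% with PCOS vehicle. Against control vehicle Slc30a2 rose with roxadustat by 1.84 on the log2(FPKM + 0.5) scale (SE 0.235, limma adjusted p = 0.0098). It was 1 of 21 list genes tested, beside 0.349% of all genes called, and the call was lost without the filter (0.0568). For PCOS vehicle against control vehicle the difference of Slc30a2 was 1.62 (SE 0.271, limma adjusted p = 0.0878), past the threshold without PCOS vehicle mouse 770 (0.00672). In the authors' deposited table it was 2.26 for that comparison, with an adjusted value of 6.68e-08, and 0.39% of 23580 genes there had one under 0.05. The libraries of control muscle serve both comparisons. Between roxadustat and PCOS vehicle the log2 difference of Slc30a2 was 0.21 (SE 0.308, 95% interval -0.47 to 0.90, limma adjusted p = 0.99995). The other lowest p for PCOS vehicle against control vehicle belonged to Slc30a5, 1.69 ± 0.152 FPKM against 2.23 ± 0.169 FPKM (limma adjusted p = 0.647), and those for roxadustat against PCOS vehicle to Slc39a9, 1.70 ± 0.180 against 1.39 ± 0.107 FPKM, and Slc39a10, 1.43 ± 0.321 against 1.69 ± 0.175 FPKM (limma adjusted p = 0.99995 for both).

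In WAT, 15 of 20 list genes tested were higher and 5 lower with roxadustat than in controls, with a median log2 difference of 0.18 against 0.02 for all genes. An adjusted p under 0.05 was reached by 3 of them, Mt2 and the importers Slc39a1 and Slc39a5, beside 5.79% of all genes. Mt2 and Slc39a5 passed the filter through 1 arm alone. With these set aside, Slc39a1 alone is left, which is no excess over the share of all genes. Slc39a1, a broadly expressed importer, had 30.5, 43.2, 38.7, 45.1 and 42.2 FPKM in roxadustat WAT (mice 764, 767, 782, 795 and 809), against 23.4, 28.9, 26.2 and 21.8 FPKM in control WAT (mice 778, 779, 789 and 802). The groups did not overlap, as for 12.3% of all genes, and the log2 difference was 0.66 (SE 0.147, limma adjusted p = 0.0336). Slc39a5, an importer known from gut and pancreas, averaged 0.113 ± 0.105 FPKM with roxadustat and 0.439 ± 0.121 FPKM in controls (SD, n = 5 and 4), and the log2 difference was -0.62 (SE 0.150). The Slc39a5 groups overlapped, and since it passed the filter through the control libraries alone, its limma adjusted p of 0.0400 is no test of the direction. The call of Slc39a1 was lost without any of roxadustat mice 767, 795 and 809 or any of the 4 control mice (adjusted p 0.0507 to 0.0930), and the adjusted p of Slc39a5 was over 0.05 without any mouse but roxadustat mouse 764 (0.0517 to 0.0941). Both were also over 0.05 without the filter (0.0561 and 0.0748) and with all 3 arms in 1 fit (0.104 and 0.102), and Slc39a5 with voom (0.0898). PCOS vehicle WAT averaged 38.8 ± 8.98 FPKM of Slc39a1 and 0.136 ± 0.147 FPKM of Slc39a5, which did not pass the test against the same controls (limma adjusted p = 0.268 and 0.238). Of 19 list genes tested between roxadustat and PCOS vehicle in WAT none was called, the lowest p being those of Mt2 and of Slc39a10, 3.34 ± 0.709 FPKM against 2.92 ± 0.713 FPKM (limma adjusted p = 0.99998).

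**Figure D5:**
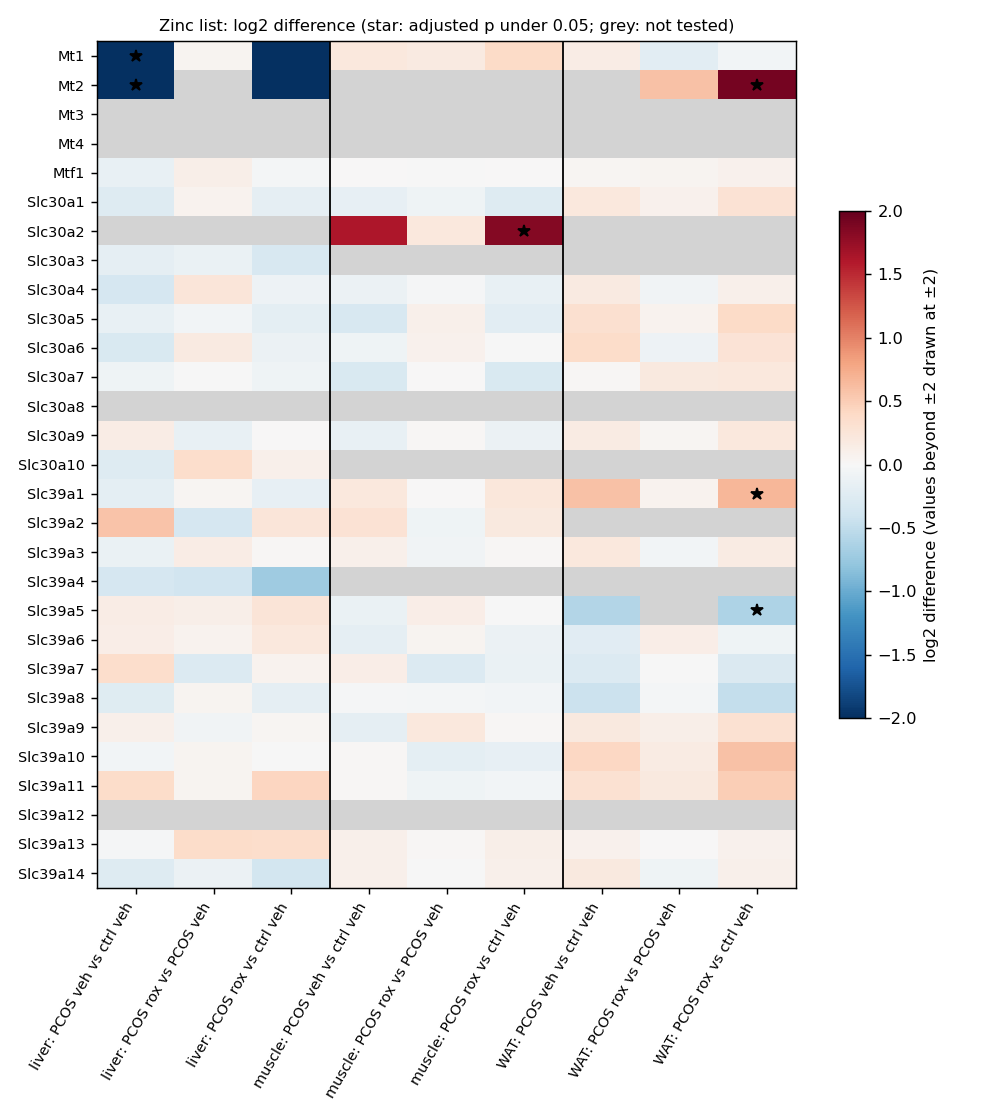
Log2 difference of each of the 29 zinc genes (rows) in each comparison of 2 arms (columns, first arm minus second), with colour limited to 2 log2 units either way, a star for an adjusted p under 0.05 and grey where a gene was not tested. Beyond Mt1 and Mt2, stars stand at Slc30a2 in muscle and at Slc39a1 and Slc39a5 in WAT, all for roxadustat against control vehicle.

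Other inducers of metallothioneins were looked at through lists of their target genes. In liver no copper handling, acute phase, glucocorticoid-induced, oxidative stress or HIF target gene was called by limma in any of the 3 comparisons, beside 0.82% of all genes for PCOS vehicle against control vehicle and 0.0% for both others. At an unadjusted p under 0.05, PCOS vehicle against control vehicle had 8 of 21 acute phase genes (14 of the 21 lower, 7 higher), 3 of 12 copper genes, 2 of 15 glucocorticoid-induced genes, 4 of 15 oxidative stress genes and 1 of 15 HIF targets, beside 11.2% of all genes. For PCOS vehicle against control vehicle in liver the median log2 difference was -0.16 over 21 acute phase genes, 0.06 over 15 glucocorticoid-induced genes, 0.21 over 15 oxidative stress genes and -0.24 over 15 HIF targets, against 0.00 over all genes. For roxadustat against PCOS vehicle 12 of the 15 glucocorticoid-induced genes were higher and 3 lower in liver, with a median of 0.31. In muscle none of these genes was called either. For roxadustat against control vehicle in WAT, 5.79% of 15499 genes were called. That count, 897, moved to between 100 and 1771 when each mouse was left out, so single calls there are unstable. Among them, the acute phase gene Lbp, a lipopolysaccharide-binding protein, rose with roxadustat to 41.7 ± 18.4 FPKM against 11.2 ± 2.53 FPKM in controls (limma adjusted p = 0.0209). The acute phase genes Orm2 and Orm3 fell, Orm3 to 8.01 ± 1.89 FPKM against 15.04 ± 3.44 FPKM (limma adjusted p = 0.0336). Also in WAT, the glucocorticoid-induced gene Lpin1, a phosphatidic acid phosphatase, rose with roxadustat to 28.8 ± 3.69 FPKM against 16.7 ± 3.17 FPKM (adjusted p = 0.0272), and the HIF target Higd1a fell to 13.4 ± 2.55 FPKM against 23.3 ± 6.35 FPKM (adjusted p = 0.0450). For PCOS vehicle against control vehicle in WAT, the glucocorticoid-induced gene Sult1e1, the estrogen sulfotransferase, averaged 1.06 ± 0.512 FPKM against 0.0105 ± 0.0209 FPKM. With controls near 0, it passed the filter on low values through PCOS vehicle libraries. Its limma adjusted p of 0.0190 is therefore no test of the direction.

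The genes whose pattern was most like that of the metallothioneins were listed for each tissue. Likeness is the Pearson r with the mean log2(FPKM + 0.5) of Mt1 and Mt2 over all libraries of a tissue, given as a description because the points share their arm and library. In liver, among 9727 genes over 12 libraries, these were Cux2 (r 0.926), a homeobox factor, Hao2 (0.915), a hydroxy acid oxidase, Slc7a5 (0.912), an amino acid transporter, Abcd2 (0.910), a peroxisomal transporter, and Esr1 (0.909), which encodes estrogen receptor alpha. Cux2 averaged 1.05 ± 1.38 FPKM in roxadustat livers and 0.271 ± 0.286 FPKM in PCOS vehicle livers, against 20.1 ± 9.75 FPKM in control livers. Esr1 averaged 1.90 ± 1.01, 0.918 ± 0.116 and 3.18 ± 0.481 FPKM in the same order of arms. In WAT, among 10118 genes over 15 libraries, Lars (0.903), Rcn2 (0.885), Ifngr2 (0.884), Lrg1 (0.880) and Fhl1 (0.860) led, and in muscle, among 9450 genes over 12 libraries, Crebrf (0.878), Resf1 (0.834), Nagk (0.826), Atf3 (0.804) and Zfp580 (0.800). None of the 5 genes of 1 tissue was among the 5 of another. Lists of 5 from 9450 or more genes would rarely share a name, so this is no result about the tissues. In liver, r includes the gap between control and PCOS livers that chose the metallothioneins. In muscle Mt2 was listed at 0 in 9 of 12 libraries, so that r there rests mostly on Mt1.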

How the data were processed

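Polyadenylated RNA of liver, muscle and WAT was sequenced from 300 ng of total RNA, extracted with one kit for liver and muscle and another for WAT, per the labels' protocols. The submitters' processing notes name CASAVA 1.8, HISAT2 2.0.5 (an aligner) and DESeq2 1.20.0, and the mm39 build. The tool that counted reads per gene and the annotation release were not given in the sources used here. The 6 deposited tables hold expression in FPKM as the authors computed it, per the file headers, together with the authors' log2 fold change, the authors' p-value and its adjusted value, and the gene length (a score in bases) used by the authors. All sample columns matched a sample, with 0 left over.

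In every library 100% of values were whole multiples of the worth of 1 read, within a tolerance of 0.001, and the reads so recovered served to give depth, to filter genes and to run voom. Limma 3.58.1 in R 4.3.3, with a trend, was run on log2(FPKM + 0.5) without further scaling, for each pair of arms alone. A gene was tested if it reached 10 depth-scaled recovered reads in a number of libraries equal to the smaller arm, and 15 over all. Two-sided p-values were adjusted over the genes of each fit with the Benjamini-Hochberg method, and an adjusted p under 0.05 counts as a call. Tissues were compared through the interaction of tissue with arm. A mouse number is the same mouse in each tissue, so mouse was a block in an alternative. Within a tissue no mouse was in more than 1 arm, so no comparison of arms was paired. The fits were also tested on simulated counts. Python 3.11.15, numpy 2.4.6, scipy 1.17.1, pandas 2.3.3 and matplotlib 3.10.9 served for the rest. Intervals of read shares and ratios are exact and cover counting error only.

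Alternatives were a pseudocount of 0.1, no filter, scaling by recovered reads, voom on recovered reads, all 3 arms in 1 fit and leaving out each mouse. A term marking libraries in which under 1500 genes had 1 to 3 reads was added after seeing the data. The planned correlation of Mt1 with Mt2 over all liver libraries was replaced by the 8 PCOS livers, and that of muscle was not computed. The members and gene lists were chosen with earlier results of these data known. Named genes were the 5 members, up to 4 called genes of each list by size of difference (if none of the zinc list was called, its 2 with the lowest p), and the 5 protein-coding genes of each tissue, averaging at least 1 FPKM, most like Mt1 and Mt2.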

Additional observations from a re-analysis of the deposited data

Results flagged for a closer look

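Of 45 groups of 4 to 6 libraries, 1 per member, tissue and arm, 6 held a library far from the others. A group with all libraries but 1 at 0 is flagged whatever the remaining value is. This holds for Mt2 in control WAT and in each arm of muscle. The rate of about 1 in 20 that chance gives does not apply to such groups, so the count of 6 shows no excess. In WAT, Mt1 was 123.7 FPKM in PCOS vehicle mouse 785, above the other PCOS vehicle libraries, whose median with it was 52.6 FPKM. Slc39a14 was 1.26 FPKM in the WAT of roxadustat mouse 782, where the median of the group was 0.709 FPKM. Mt2 was 0.619 FPKM in the WAT of control mouse 802, where the other controls were listed at 0. In muscle Mt2 was listed at 0 in all but 1 library of each arm, so that the libraries of roxadustat mouse 782 (0.152 FPKM, 1 read), PCOS vehicle mouse 773 (0.642 FPKM, 4 reads) and control mouse 801 (0.662 FPKM, 6 reads) stood apart.

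The log2 difference of Mt1 between PCOS vehicle and control vehicle mice was not the same across tissues. The difference of differences, a log2 value, was -2.97 for liver minus muscle and -2.91 for liver minus WAT. Since Mt1 was chosen for its liver values, both are descriptions, with no test.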

How the results depend on the processing

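For PCOS vehicle against control vehicle in liver, Mt1 stayed between -3.13 and -2.52 and Mt2 between -5.08 and -4.75 on the log2 scale when each mouse was left out, as a description of the arms that chose them, while all genes called fell to 43 with all 3 arms in 1 fit, against 115. Counts of calls moved as follows in the other comparisons. Without the filter they were 1 for roxadustat against control vehicle in liver, 5 for PCOS vehicle against control vehicle, 2 for roxadustat against PCOS vehicle and 16 for roxadustat against control vehicle in muscle (0 of the zinc list), and 10 for PCOS vehicle against control vehicle and 197 for roxadustat against control vehicle in WAT (0 members and 0 of the zinc list). With voom they were 2 for roxadustat against control vehicle in liver (1 member, which is also the 1 of the zinc list), 24 for PCOS vehicle against control vehicle in WAT and, for roxadustat against control vehicle in WAT, 0 members and 1 of the zinc list. With all 3 arms in 1 fit they were 1 for roxadustat against control vehicle in liver, 144 for PCOS vehicle against control vehicle in WAT and 79 for roxadustat against control vehicle in WAT (0 members and 0 of the zinc list). With the term for libraries with few genes of 1 to 3 reads, chosen after seeing the data, they were 21 and 1814 for these WAT comparisons. With a pseudocount of 0.1, liver minus WAT had 46 calls for PCOS vehicle against control vehicle. The cause of these moves was not tested, beyond the larger number of genes adjusted for without the filter.

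Leaving out each mouse gave 0 to 157 genes, 0 to 2 members and 0 to 2 zinc genes called for roxadustat against control vehicle in liver. In muscle it gave 6 to 22 genes and 0 to 1 zinc genes for PCOS vehicle against control vehicle, 0 to 1 genes for roxadustat against PCOS vehicle and 17 to 33 genes for roxadustat against control vehicle. In WAT it gave 11 to 330 genes for PCOS vehicle against control vehicle and 100 to 1771 genes, 0 to 1 members and 0 to 3 zinc genes for roxadustat against control vehicle. For PCOS vehicle against control vehicle it gave 12 to 24 genes and 0 to 1 members for liver minus muscle, 26 to 374 genes and 0 to 1 members for liver minus WAT, and 2 to 63 genes for muscle minus WAT. For Mt1 the call of liver minus muscle was lost without 6 of 8 mice and that of liver minus WAT without 6 of 12. Mt2 in WAT could not be tested for roxadustat against control vehicle without roxadustat mouse 767, 782, 795 or 809.

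Signs changed for members that were not called. When each mouse was left out, log2 differences for roxadustat against PCOS vehicle in liver were -0.26 to 0.43 for Mt1, -0.013 to 0.21 for Mtf1 and -0.045 to 0.23 for Slc30a1, and Mtf1 was -0.16 to 0.059 for roxadustat against control vehicle. In muscle they were -0.072 to 0.37 for Mt1 and -0.11 to 0.14 for Mtf1 in PCOS vehicle against control vehicle, -0.089 to 0.068 for Mtf1, -0.24 to 0.049 for Slc30a1 and -0.084 to 0.087 for Slc39a14 in roxadustat against PCOS vehicle, and -0.12 to 0.13 for Mtf1 in roxadustat against control vehicle. In WAT they were -0.091 to 0.44 for Mt1 and -0.030 to 0.18 for Mtf1 in PCOS vehicle against control vehicle, -0.35 to 0.030 for Mt1 and -0.0086 to 0.12 for Mtf1 in roxadustat against PCOS vehicle, and -0.24 to 0.23 for Mt1 in roxadustat against control vehicle. Scaling by recovered reads turned Mtf1 in muscle to -0.057 for PCOS vehicle against control vehicle, to 0.023 for roxadustat against PCOS vehicle and to -0.034 for roxadustat against control vehicle. It turned Slc39a14 in muscle to 0.025 for roxadustat against PCOS vehicle, where voom gave 0.015, and Mt1 in WAT to 0.054 for roxadustat against control vehicle. The added term turned Mtf1 to -0.016 and Slc39a14 to 0.027 for roxadustat against PCOS vehicle in WAT. The cause was not tested.

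With mouse as a replicate block the interaction called 36 genes for liver minus muscle, 78 for liver minus WAT and 9 for muscle minus WAT in PCOS vehicle against control vehicle, and 0 in each for roxadustat against PCOS vehicle. Mt1 stayed at -2.97 for liver minus muscle and -2.91 for liver minus WAT, and the block changed no call of a member. The pairing comes from the labels, where a number names a mouse, and the estimated correlation within mice was -0.09996 to 0.0770.

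Low reads limit Mt2, which rests on at most 201 reads in any library. With 4 to 6 mice per arm, differences of Mt1 smaller than the intervals given were not detectable. Since neither strand nor counting tool is known, Mt2 could not be separated from its antisense neighbour.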
